A study of Mus musculus with 18 samples.

Results

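The question addressed here was how the transcriptional response to bone morphogenetic protein 2 (BMP2) at 24 h of treatment differed from that at 6 h in differentiating neural precursor cells of the mouse. The change of the response was computed from 8 of the 18 arrays of the series as a difference of differences, the BMP2 effect at 24 h minus the BMP2 effect at 6 h. The 24 h effect set BMP2 arrays 1 and 2 against control arrays 5 and 6 of 24 h. The 6 h effect set BMP2 arrays 1 and 2 against control arrays 1 and 2 of 6 h, so that each of the 4 groups held 2 arrays. All 4 groups came from the same kind of culture. Neurospheres were grown from the ganglionic eminences, lateral and medial, of the mouse at embryonic day 15.5, a ventral forebrain region labelled embryonic striatum. They were dissociated at 7 days and plated with 1% serum in a medium that lacked EGF. The medium was exchanged after 2.5 days for one without bFGF and EGF, for treated and control cells alike. The labels place the addition of BMP2 at this exchange, whereas the study's text has treatment begin earlier after plating, so whether bFGF was present during treatment cannot be settled for these arrays. BMP2 was used at 10 ng/ml, and the controls received no BMP2. RNA was hybridised to Affymetrix Mouse Genome 430 2.0 arrays, which carry 45101 probe sets. Of the remaining arrays, 4 controls of 24 h, numbered 1 to 4, and 4 arrays of cells treated for 24 h with 50 nM trichostatin A (TSA), an inhibitor of histone deacetylases, served below as a separate readout.

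BMP2 binds a complex of type I and type II serine/threonine kinase receptors, which phosphorylate the receptor-regulated Smads. With Smad4 these enter the nucleus and switch on direct targets, among them the Id genes and a set of feedback inhibitors that act outside the cell (Nog, Fst), at the receptor (Bambi) or on the Smads (Smad6, Smad7). In the embryonic forebrain BMP signalling is known to favour the astrocyte fate of neural precursors and to block their differentiation to oligodendrocytes, the myelin-forming cells.

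Effects are given as differences of group means of log2(signal + 32), where the signal is the deposited array signal after quantile normalisation and 32 is a constant that damps the noise of dim probe sets, so that folds of dim genes are understated. A probe set was tested when its mean signal reached 100 in at least 1 of the 4 groups, which 18663 probe sets did, and adjusted p-values are from limma with Benjamini-Hochberg correction over all of them. The arrays were alike in overall signal, with median deposited signals of 35.4 to 41.6, and replicate arrays correlated at r = 0.973 to 0.984 across probe sets. The labels do not say whether arrays of a group came from separate cultures, and the p-values then reflect no more than the spread among these arrays. The 4 arrays of 24 h used here stood apart in Xist, the non-coding RNA of the inactive X chromosome. Of its probe sets, 1 gave 703 to 2086 on these 4 arrays and 18.4 to 75.5 on the other 14, another gave 2197 to 4467 and 325 to 1875, and the last ran the other way, with 23.4 to 97.5 and 66.8 to 375. By the first 2 of these probe sets BMP2 and control arrays lay on the same side of this divide within each time. They were not equal at 24 h, where the first gave 1225 and 703 with BMP2 and 2086 and 1548 in controls. The arrays of 24 h differed from those of 6 h, and the labels name no batch. A change of the response with time and a different response of the cultures used at 24 h cannot be told apart. Of 8 genes of ventral forebrain progenitors on the array, 7 reached the minimum (Olig2, Sox2, Gsx2, Dlx1, Dlx2, Nes and Meis2). All 11 microglial and all 5 erythroid markers measured had means under 100 in every group.

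BMP2 altered more genes at 24 h than at 6 h, and most of the early response was still present at 24 h. At 24 h, 960 probe sets changed at least 2-fold with an adjusted p under 0.05 (5.14% of those tested, 564 or 3.02% up and 396 or 2.12% down), against 277 at 6 h (1.48%, 178 up and 99 down). Both times shared 221 probe sets, all of them changed in the same direction, which made up 23% of the 24 h calls and 79.8% of the 6 h calls. Of the 277 probe sets called at 6 h, 276 had the same sign at 24 h. The median size of the effect over all tested probe sets was 0.19 at 24 h and 0.11 at 6 h on the log2 scale. The test of the change itself called 87 probe sets (0.466%), of which 70 moved upward (0.375%) and 17 downward (0.0911%), and 1242 (6.65%) had an unadjusted p under 0.05. The count of 87 was sensitive to single arrays. It was 38 without control 6 h array 1, 41 without control 6 h array 2, 45 without control 24 h array 6, 48 without BMP2 6 h array 1, 44 without BMP2 6 h array 2 and 40 without BMP2 24 h array 1.

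The 1016 probe sets called at either time were sorted by the sizes of both effects, which is a description of the effects and carries no test. Growing probe sets were called at 24 h with an effect that exceeded that at 6 h by at least 1 on the log2 scale. Sustained probe sets were called at both times with effects that differed by less than 1, and transient probe sets were called at 6 h with an effect at 24 h that fell short by at least 1. There were 377 growing probe sets of 279 genes, 191 sustained probe sets of 135 genes and 9 transient probe sets of 7 genes. No probe set was called in opposite directions, and 439 were called at 1 time only with effects too alike for a class. Among the growing probe sets, 236 were upregulated, with median effects of 1.82 at 24 h and 0.33 at 6 h, and 141 were downregulated, with medians of -1.70 and -0.30. The upregulated sustained probe sets (118) had medians of 1.72 at 24 h and 1.47 at 6 h, the downregulated ones (73) had medians of -1.61 and -1.47. The test of the change was passed by 67 of the 236 upregulated and 13 of the 141 downregulated growing probe sets, by 2 of the 9 transient and by none of the 191 sustained ones. The boundary fell in a continuous distribution. Calcrl, a receptor subunit for calcitonin-related peptides, with effects of -1.92 at 24 h and -0.92 at 6 h, was the growing member nearest to it, and Ica1, with effects of -1.41 and -0.41, lay just outside. For the transient class Hdac7 was nearest inside with a change of 1.02, and Pla2g4a, a phospholipase, with effects of -0.16 at 24 h and -1.12 at 6 h, lay just outside with 0.96. Of 90 genes with several sorted probe sets, 86 had all of them in 1 class and all 90 had them in 1 direction. Probe sets of these genes that fell in none of the classes did not enter this count.

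**Figure D1:**
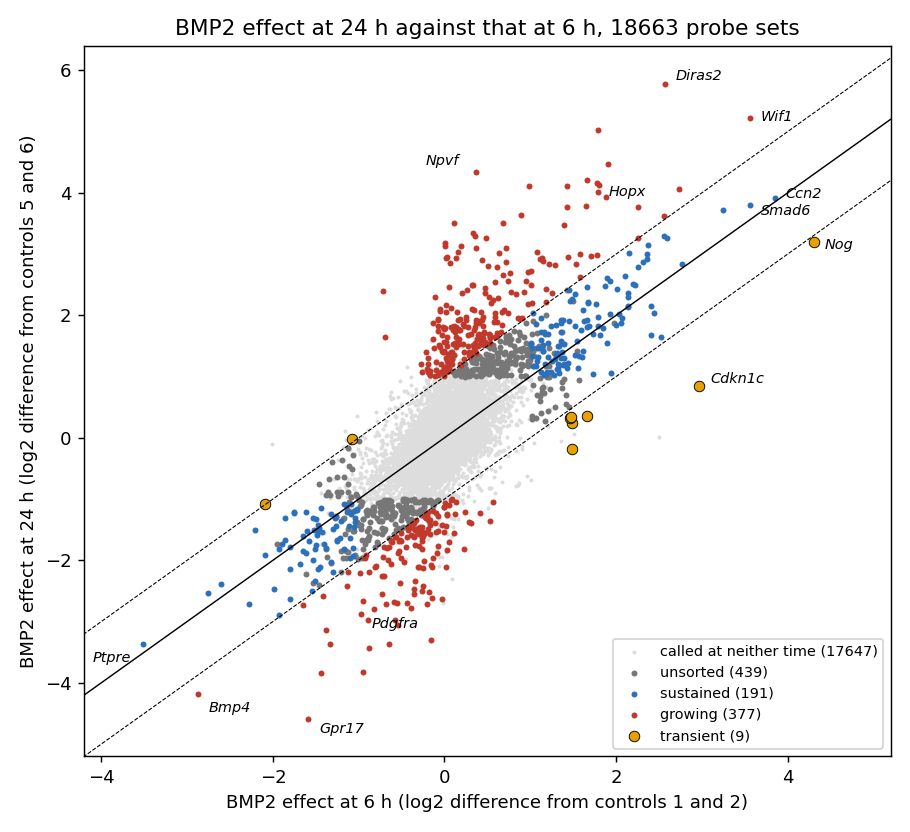
BMP2 effect at 24 h plotted against the BMP2 effect at 6 h for each tested probe set, both as log2 differences of group means (2 arrays per group), coloured by class. The 221 probe sets called at both times lie only where both effects have the same sign, while the 377 growing probe sets lie away from the diagonal on the side of the larger 24 h effect and the 9 transient ones on the side of the larger 6 h effect.

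The growth of a difference can come from either side of it. In the growing class the 24 h controls themselves lay at least 1 log2 unit from the 6 h controls for 5 of the 236 upregulated and 21 of the 141 downregulated probe sets, beside 1314 of all 18663 tested (7.04%). Of the 236, 120 reached the minimum of 100 only in BMP2-treated cells at 24 h and thus entered the test through that group alone. In bulk RNA, fewer cells of a type and less RNA per cell cannot be told apart. Which 24 h controls were used mattered for the counts. With all 6 controls of 24 h the change was called for 124 probe sets (75.8% upward) and with controls 1 to 4 for 1534 (44.8% upward), against 80.5% upward with controls 5 and 6. Of the 87 probe sets, 77 were also called with all 6 controls and 83 with controls 1 to 4. Controls 1 to 4 lacked the high Xist signal of the BMP2 arrays of 24 h, and all 6 controls include them. Wherever they are set against BMP2, here and below, treatment and this difference between arrays cannot be told apart.

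Promoters of 4 of the genes below are printed because these genes stand for the patterns described, a sustained feedback inhibitor (Smad6), a gene with growing induction (Cdk6), a gene with growing loss (Gal3st1) and the gene with the largest growth (Npvf). The sequences are from RefSeq on GRCm38.p6, run 5' to 3' on the strand of the gene, and cover 250 bases before the start to 2 after it. Capitals mark a motif of Smad sites in published work, found on either strand. It is either GGCGCC or GTCTAG, the latter only the first letters of a palindromic site. Distances are to the first base of the match, and the Smad6 match runs across the start. For a gene with several windows the window with the most matches is printed, and Gal3st1 had 3. GTCTAG reads CTAGAC on the other strand, and GGCGCC is its own reverse complement.
Smad6, chr9:64022058-64022309, minus strand, GTCTAG 4 bases before the start: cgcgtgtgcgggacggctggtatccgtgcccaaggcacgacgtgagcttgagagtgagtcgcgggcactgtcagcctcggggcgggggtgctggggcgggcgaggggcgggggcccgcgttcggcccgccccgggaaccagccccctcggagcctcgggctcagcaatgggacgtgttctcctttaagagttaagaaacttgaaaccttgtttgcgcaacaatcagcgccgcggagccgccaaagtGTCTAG
Cdk6, chr5:3343643-3343894, plus strand, GGCGCC 71 bases before the start: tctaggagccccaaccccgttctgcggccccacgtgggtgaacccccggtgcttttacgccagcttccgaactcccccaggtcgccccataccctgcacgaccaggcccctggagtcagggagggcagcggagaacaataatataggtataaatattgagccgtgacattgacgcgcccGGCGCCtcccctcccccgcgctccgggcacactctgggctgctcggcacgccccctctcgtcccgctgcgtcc
Gal3st1, chr11:3983386-3983637, plus strand, GGCGCC 24 bases before the start: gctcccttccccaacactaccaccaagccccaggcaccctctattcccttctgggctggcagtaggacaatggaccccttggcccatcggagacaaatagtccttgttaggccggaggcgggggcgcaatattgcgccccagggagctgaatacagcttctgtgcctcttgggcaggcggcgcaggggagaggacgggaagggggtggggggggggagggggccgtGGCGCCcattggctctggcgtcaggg
Npvf, chr6:50654444-50654695, minus strand, neither motif: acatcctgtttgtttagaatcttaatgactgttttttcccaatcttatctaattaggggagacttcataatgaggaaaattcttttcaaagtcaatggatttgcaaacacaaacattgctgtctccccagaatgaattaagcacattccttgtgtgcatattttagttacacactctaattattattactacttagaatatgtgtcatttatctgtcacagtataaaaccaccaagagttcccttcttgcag

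Counted over windows of 300 bases (250 before to 50 after the start), GGCGCC occurred in 38 of the 133 upregulated growing genes with a window (28.6%), in 19 of 82 downregulated growing genes (23.2%), in 28 of 62 upregulated sustained genes (45.2%) and in 10 of 39 downregulated sustained genes (25.6%), beside 26.6% of the 8323 tested genes with a window and 13.4% of all 27025 genes with one. Base composition differed along with these shares. The windows averaged 64.8% G and C in the upregulated sustained genes, 60.3% and 60.2% in the upregulated and downregulated growing genes, 61.4% in the tested genes and 53.8% in all genes. GTCTAG occurred in 8.27% of upregulated growing, 11% of downregulated growing, 6.45% of upregulated sustained and 7.69% of downregulated sustained genes, beside 9.52% of tested genes. None of the 5 transient genes with a window held either motif. A match is a run of letters and not a shown binding site, and the part of base composition in these shares was not tested.

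The 10 largest upregulated growths that passed the test included Npvf, Serpinf1, Diras2 and Nrp2, all with signals under 100 in the controls of both times. Npvf, the precursor of RFamide neuropeptides and the gene with the largest growth, had signals of 1181 and 564 in BMP2-treated cells at 24 h, against 10.7 and 9.27 in controls of 24 h. At 6 h its signals were 21.1 and 39.1 with BMP2 and 11.2 and 20.2 in controls. The 24 h groups were far apart, while the 6 h groups lay next to each other without overlap. The effect was 4.34 ± 0.34 (SE) at 24 h and 0.37 ± 0.34 at 6 h, a change of 3.97 ± 0.48 (limma adjusted p = 7.65e-04). Serpinf1, which encodes the secreted serpin PEDF, gave 2217 and 1326 with BMP2 and 24.5 and 19.3 in controls at 24 h, and 182 and 187 with BMP2 and 24.5 and 37.7 in controls at 6 h. Its groups were separate at both times and the induction grew by 3.23 ± 0.34 (limma adjusted p = 3.75e-04). Diras2, a GTPase of the Ras family, gave 3517 and 3619 with BMP2 and 53.0 and 18.4 in controls at 24 h, the largest 24 h effect of the genes named here (5.78 ± 0.39). It was likewise induced at 6 h, with 567 and 203 in BMP2-treated cells against 39.1 and 24.0 in controls, and the change was 3.21 ± 0.55 (limma adjusted p = 0.0146).

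Most of the other upregulated growing genes had no difference at 6 h that passed the test. Nrp2, a co-receptor for class 3 semaphorins and VEGF, gave 835 and 745 with BMP2 and 74.5 and 50.7 in controls at 24 h. At 6 h it gave 44.5 and 33.7 with BMP2 and 43.9 and 33.9 in controls, so that the pairs were nearly equal (effect 0.00 ± 0.30) and the change was 3.13 ± 0.42 (limma adjusted p = 0.00185). Aplnr, the receptor for apelin, was dim in every group but BMP2 at 24 h, where it gave 305 and 224 against 7.11 and 5.57 in controls of that time, with 8.97 and 9.44 with BMP2 and 6.05 and 4.83 in controls at 6 h (change 2.80 ± 0.21, limma adjusted p = 1.60e-05). Signals above 100 with BMP2 at 24 h only were likewise found for Mamdc2, a secreted proteoglycan with MAM domains (change 3.01), Fmod, the matrix proteoglycan fibromodulin (2.94), Tnfrsf13c, the receptor for BAFF (2.82), and Lyz1, a lysozyme (2.79). The limma adjusted p-values of these 4 were 0.00556, 0.0171, 4.01e-04 and 1.78e-05. Fmod was uneven between the BMP2 arrays of 24 h, with 589 and 168 against 7.69 and 8.76 in controls, and its other 5 tested probe sets were growing too. Lyz1 shares nearly identical sequence with Lyz2, and its probe set may report both. Hopx, an atypical homeodomain protein that does not bind DNA, gave 3971 and 4634 with BMP2 against 335 and 162 in controls at 24 h and was already induced at 6 h, with 640.0 and 535 against 146 and 148 (change 2.23 ± 0.36, limma adjusted p = 0.00959).

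Cdk6, a kinase that drives cells through G1, differed from the genes above in lying lower with BMP2 than in the mean of the controls at 6 h. It gave 1121 and 1346 with BMP2 and 252 and 168 in controls at 24 h. At 6 h the values were 78.0 and 41.5 with BMP2 and 179 and 71.1 in controls, which overlap, and the 6 h effect of -0.71 ± 0.45 did not pass the test. The change of 3.12 ± 0.64 was near the threshold (limma adjusted p = 0.0484). The calls of the change for Npvf, Serpinf1, Nrp2, Mamdc2, Tnfrsf13c, Aplnr and Lyz1 remained when any 1 of the 8 arrays was left out. That of Cdk6 was lost in 7 of the 8 omissions, all but that of control 6 h array 2 (adjusted p up to 0.251). That of Fmod was lost without either control of 6 h, either BMP2 array of 6 h or control 24 h array 6 (up to 0.0849). That of Diras2 was lost without control 6 h array 1, control 24 h array 6, BMP2 6 h array 2 or BMP2 24 h array 1 (up to 0.104), and that of Hopx without either control of 6 h or BMP2 6 h array 2 (up to 0.0630). In a fit on the 8 arrays alone Diras2 (adjusted p = 0.0629), Fmod (0.106) and Hopx (0.0518) did not pass the test of the change. Npvf, Nrp2, Mamdc2, Tnfrsf13c, Aplnr and Lyz1 had entered the test through BMP2 at 24 h alone, the group where they were high. Calls that remained under omission are therefore no separate support for these genes.

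**Figure D2:**
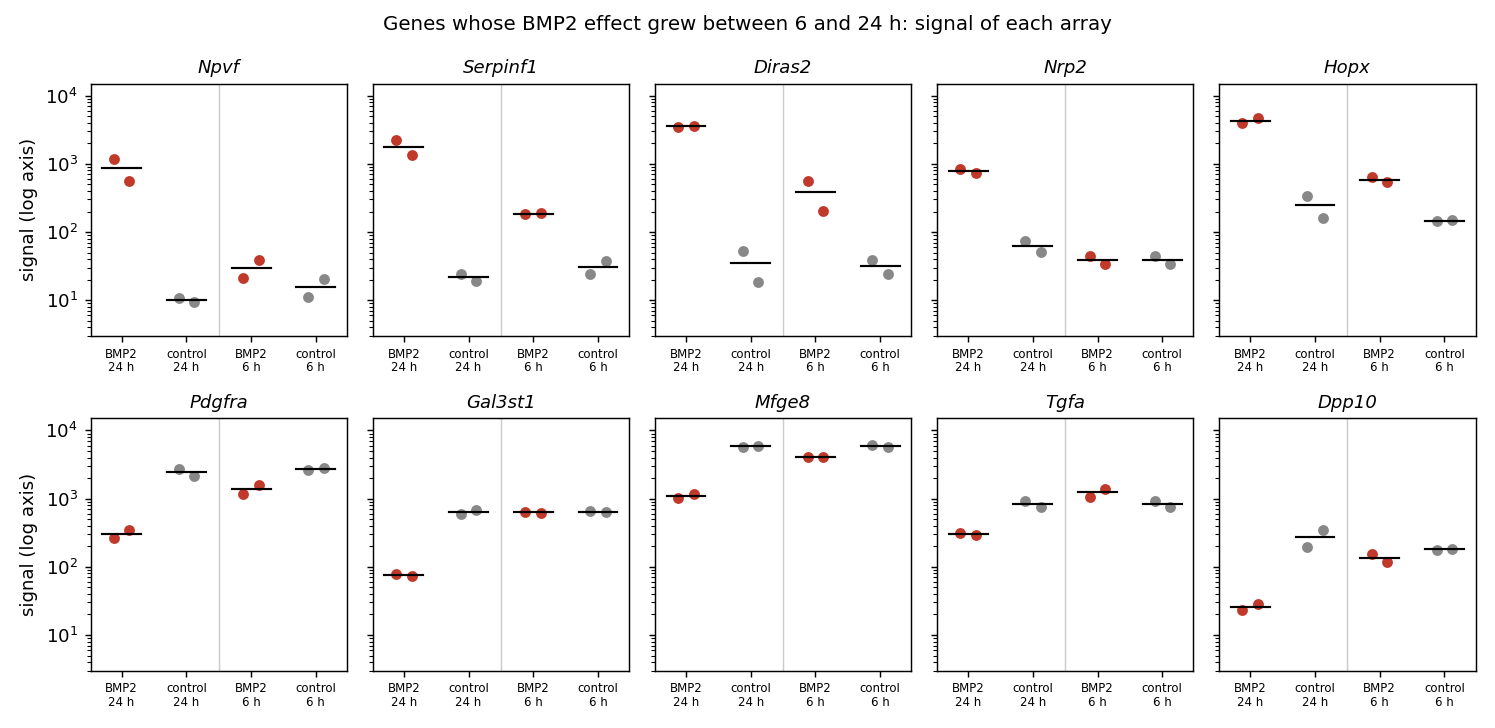
Normalised signal on each of the 8 arrays (log axis) for growing genes, with BMP2 and control arrays of 24 h and of 6 h as separate groups, points for arrays and black lines for group means. Npvf and Nrp2 are far apart between BMP2 and controls at 24 h and close at 6 h, Serpinf1 and Diras2 at both times with a wider gap at 24 h, and Pdgfra and Mfge8 are below the controls at 24 h.

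Downregulated genes with growing effects included genes of the oligodendrocyte lineage. Those passing the test of the change were looked at after their values were seen, since the 10 largest growths that passed were all upward. Pdgfra, the PDGF receptor that marks oligodendrocyte precursors, gave 261 and 349 with BMP2 and 2733 and 2146 in controls at 24 h, and 1168 and 1563 with BMP2 and 2627 and 2764 in controls at 6 h. The groups were separate at both times, with effects of -2.88 ± 0.23 at 24 h and -0.98 ± 0.23 at 6 h and a change of -1.90 ± 0.33 (limma adjusted p = 0.0151). Gal3st1, the sulfotransferase that makes sulfatide, a lipid of myelin, gave 77.9 and 74.0 with BMP2 and 586 and 690.1 in controls at 24 h. At 6 h its 4 arrays lay between 621 and 654, and the change was -2.60 ± 0.49 (limma adjusted p = 0.0279). Mfge8, a secreted bridging protein in the uptake of dying cells, gave 1026 and 1172 with BMP2 and 5686 and 5935 in controls at 24 h, and 4134 and 4122 with BMP2 and 6065 and 5767 in controls at 6 h (change -1.86 ± 0.25, limma adjusted p = 0.00185). Its groups were separate at both times, with a much smaller gap at 6 h.

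Tgfa, a ligand of the EGF receptor, gave 313 and 295 with BMP2 and 931 and 742 in controls at 24 h. At 6 h it gave 1067 and 1404 with BMP2 against 925 and 759 in controls, a 6 h effect of 0.53 ± 0.20 that did not pass the test. The BMP2 arrays lay below the controls at 24 h and above them at 6 h, and the change was -1.89 ± 0.29 (limma adjusted p = 0.00588). Dpp10, an auxiliary subunit of Kv4 potassium channels, gave 23.6 and 28.2 with BMP2 and 194 and 348 in controls at 24 h, and 154 and 119 with BMP2 and 178 and 183 in controls at 6 h (change -2.0 ± 0.34, limma adjusted p = 0.0146). Pcdh15, a protocadherin, was low with BMP2 at both times (25.7 and 25.6 at 24 h, 36.0 and 46.8 at 6 h), while its controls gave 364 and 552 at 24 h and 80.3 and 69.7 at 6 h. Its change of -2.51 ± 0.49 (limma adjusted p = 0.0342) therefore came with a difference between the controls of the times, and with all 6 controls of 24 h it was -1.76 (adjusted p = 0.339). Abtb2 (change -2.09, adjusted p = 0.0466) and Oca2, a melanosomal membrane protein (-1.80, adjusted p = 0.0484), were near the threshold. The calls of Tgfa and Mfge8 remained under every omission of 1 array. Gal3st1 lost its call in all 8 omissions (adjusted p up to 0.156), Abtb2 and Pcdh15 in 7 each (up to 0.251 and 0.198), and Oca2 in 6 (up to 0.264), where Abtb2 kept it only without control 24 h array 5, Pcdh15 only without the same array, and Oca2 only without control 6 h array 1 or BMP2 6 h array 2. Pdgfra lost its call of the change without either control of 6 h, control 24 h array 5, BMP2 6 h array 2 or BMP2 24 h array 1 (up to 0.101), its 6 h effect, which was under 2-fold, had an adjusted p of up to 0.507 without 1 of the 4 arrays of 6 h, and Dpp10 lost the call of the change without either control of 6 h, control 24 h array 6, BMP2 6 h array 1 or BMP2 24 h array 1 (up to 0.0854). In a fit on the 8 arrays alone Dpp10 (adjusted p = 0.0518) and Oca2 (0.126) did not pass, and with all 6 controls of 24 h Oca2 did not (0.0660).

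The lists of the oligodendrocyte lineage had negative median effects at 24 h and smaller ones at 6 h, most clearly the myelin list. Of 19 premyelinating and myelin genes tested, 8 fell at 24 h and 2 at 6 h, beside 2.5% and 0.667% of all 10195 tested genes (1 probe set per gene). Their median effects were -1.32 at 24 h and -0.08 at 6 h, and 18 of 19 changes were negative with a median of -1.31, beside medians of -0.01, -0.01 and 0.00 over all tested genes, of which 6.09% were called in either direction at 24 h, 1.76% at 6 h and 0.628% for the change. Of these genes 6 were growing (Bcas1, Nfasc, Cnp, Enpp6, Plxnb3 and Gal3st1) and 2 sustained (Prkcq and Gpd1), and Gal3st1 alone passed the test of the change, which 0.128% of all genes passed downward. Of 17 genes of oligodendrocyte precursors, 5 fell at 24 h and none at 6 h by the 2-fold rule, and all 5 were growing (Pdgfra, Gpr17, Lims2, Ugt8a and Pdgfa). The median of this list was -0.43 at 24 h and -0.28 at 6 h, and its remaining members included Cspg4 (-0.06 and -0.24) and Bcan (0.16 and 0.02). Of 9 oligodendrocyte transcription factors, 4 fell at 24 h and 1 at 6 h (Myt1). Myrf, Sox10 and St18 were growing. Olig1 (-0.22 at 24 h, -0.29 at 6 h) and Olig2 (-0.96 and -0.62), which specify the lineage, stayed under 2-fold and were not called. Olig2 nonetheless passed the test at 24 h (limma adjusted p = 4.89e-04) and at 6 h (0.0364). Its arrays did not overlap at either time. At 24 h the call of Nkx2-2 was lost whichever of the 8 arrays was left out (adjusted p up to 0.245), that of Ugt8a without any 1 of the 4 arrays of 24 h (up to 0.115), that of St18 without control array 5 or either BMP2 array (up to 0.177), and that of Myrf without control array 6 (0.0507). At 6 h the call of Gpd1 was lost without either control or BMP2 array 1 (up to 0.208).

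Per array, Gpr17, a receptor of committed precursors, gave 113 and 165 with BMP2 and 3574 and 4517 in controls at 24 h, and 1287 and 1464 with BMP2 and 4258 and 4120.4 in controls at 6 h. BMP2 and control arrays did not overlap at either time, but the change of -3.00 ± 1.02 did not pass the test (limma adjusted p = 0.385). Sox10, a transcription factor of the whole lineage, gave 272 and 214 with BMP2 and 1584 and 1549.9 in controls at 24 h, and 2225 and 2253 with BMP2 and 2854 and 2908 in controls at 6 h. Bcas1, a marker of early myelinating cells, gave 409 and 554 with BMP2 and 5211 and 5221 in controls at 24 h, and 3571 and 3696 with BMP2 and 5866 and 5544 in controls at 6 h. In both genes replicates lay close together and the gap was far wider at 24 h, with changes of -2.19 ± 0.74 (limma adjusted p = 0.383) and -2.72 ± 0.85 (0.307). The SEs of these genes came from the common spread of all 18 arrays. In a fit on the 8 arrays alone the test of the change was passed by Bcas1 and Lims2 (adjusted p = 0.00255 each), Gpr17, Sox10 and Plxnb3 (0.00347 each), Enpp6 (0.0204), Ugt8a (0.0209) and Cnp (0.0294). Mag, an adhesion protein of myelin, gave 175 and 85.1 with BMP2 and 467 and 384 in controls at 24 h, but 1565 and 3744 with BMP2 and 1383 and 3536 in controls at 6 h. At 6 h the replicates differed over 2-fold while treated and control arrays of equal number lay close, and the effects of -1.55 ± 0.95 and 0.13 ± 0.95 did not pass. Markers of neural crest and Schwann cells, which share Sox10 with this lineage, summed to 611 to 798 with BMP2 and 1954 to 2072 in controls at 24 h, and to 2539 to 2836 with BMP2 and 3440 to 3648 in controls at 6 h. Sox10 was the 1 of 4 tested that was called, and the difference of the sums at 24 h lay mostly in it. At that time Ngfr gave 199.7 and 115.5 with BMP2 and 45.3 and 106.5 in controls. Pmp22 gave 264.8 and 241.3 with BMP2 and 370.8 and 235.1 in controls. The part of such cells was not tested.

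**Figure D3:**
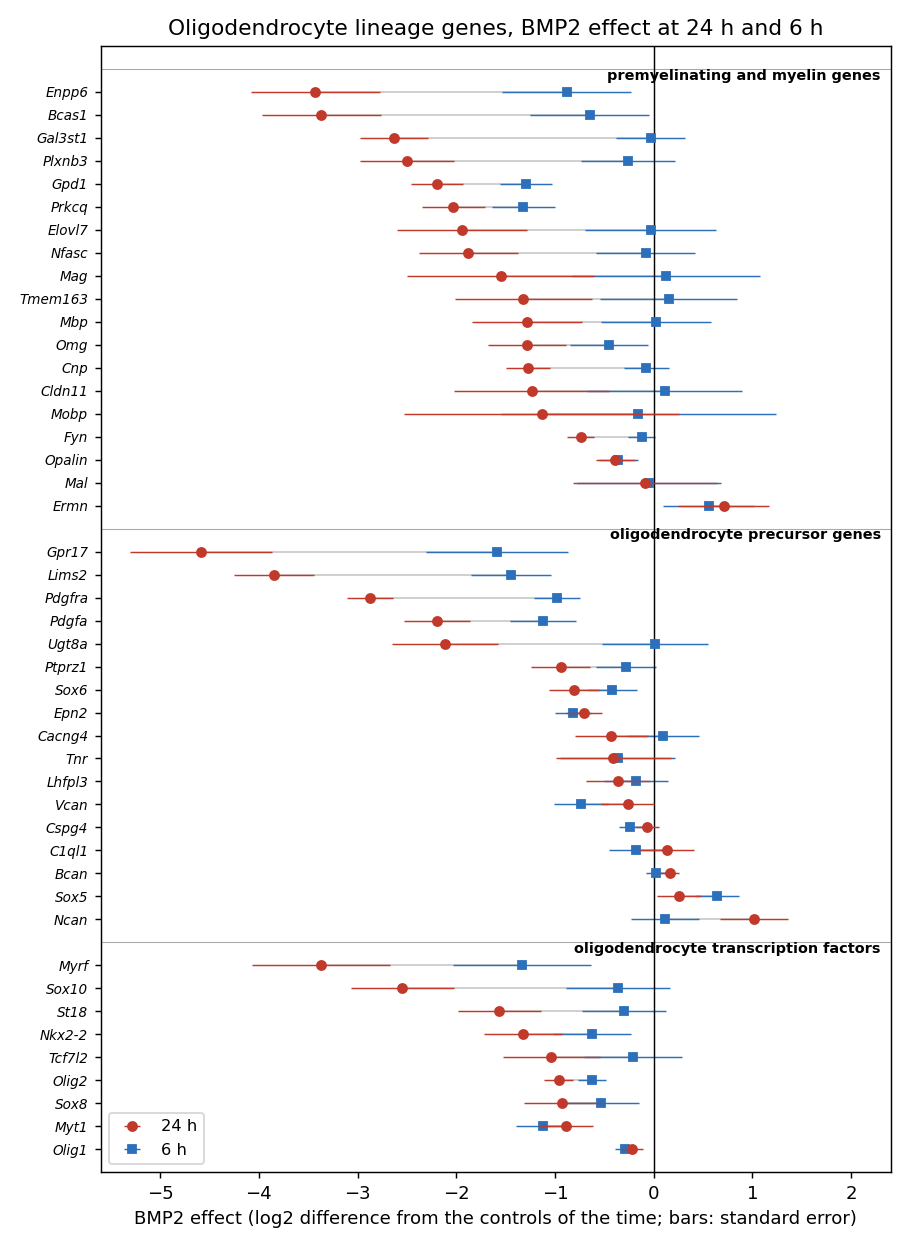
BMP2 effects (log2 difference of group means, with SE) at 24 h and at 6 h for tested genes of the oligodendrocyte transcription factor, precursor and myelin lists. Gpr17, Lims2, Bcas1, Enpp6 and Myrf reach -3.37 or below at 24 h, and Olig1, Cspg4 and Bcan lie between -0.29 and 0.16 at both times.

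Some feedback inhibitors of the BMP pathway were already upregulated at 6 h, and 4 of those called were sustained, with effects of like size at both times. Nog, described below with the transient genes, belonged to this list and had the larger effect at 6 h (3.20 at 24 h, 4.31 at 6 h). Of 12 feedback inhibitors tested, 7 rose at 24 h and 5 at 6 h, beside 3.59% and 1.09% of all tested genes, with medians of 1.10 and 0.58, and none passed the test of the change. Smad6, which blocks receptor-regulated Smads, gave 927 and 771 with BMP2 and 26.5 and 34.9 in controls at 24 h, and 696 and 534 with BMP2 and 24.8 and 19.8 in controls at 6 h. The BMP2 arrays were about equally far above the controls at both times, with effects of 3.81 ± 0.31 and 3.56 ± 0.31 and a change of 0.25 ± 0.44. Fst, a secreted antagonist of activin and BMPs, was similar, with 1058 and 1157 against 83.0 and 33.0 at 24 h and 624 and 622 against 35.1 and 38.4 at 6 h (change 0.47 ± 0.46). Smad7 (effects 2.65 and 2.11) and the pseudoreceptor Bambi (1.5 and 1.33) were sustained too. Bmper and Fstl1, both secreted, were called at 24 h only (1.07 and 1.13), while the ubiquitin ligases Smurf1 and Smurf2 and the secreted Twsg1 had 24 h effects between -0.13 and 0.06. The 6 h call of Bambi was lost without any 1 of the 4 arrays of 6 h (adjusted p up to 0.357) and that of Smad7 without control array 1 or either BMP2 array (up to 0.155). The 24 h calls of Bambi, Bmper and Fstl1 were lost without BMP2 24 h array 1 (0.0632 for Bambi), those of Bmper and Fstl1 also without control 24 h array 6 (up to 0.168 and 0.219), and that of Bmper without BMP2 24 h array 2.

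Among 13 ligands, receptors and signalling Smads, Bmp4 alone was called, downward at both times. This ligand of the same receptors gave 28.6 and 47.1 with BMP2 and 1114 and 1349 in controls at 24 h, and 133 and 81.0 with BMP2 and 1201 and 783 in controls at 6 h. It lay far below the controls at both times, and it was sorted as growing through a change of -1.31 ± 0.74 that did not pass the test (limma adjusted p = 0.909). Its 6 h call was lost without control array 1 or BMP2 array 2 of 6 h (up to 0.0966). The type I receptors Acvr1 (0.95 at 24 h, 0.79 at 6 h) and Bmpr1a (0.80 and 0.59) and the type II receptor Bmpr2 (0.89 and 0.70) stayed below 2-fold. Of 10 Id, Hes and Hey repressors, which hold back differentiation, Hey1 (1.84 at 24 h, 2.00 at 6 h) and Id1 (1.14 and 1.56) were sustained. Id1 gave 3902 and 3890.1 with BMP2 and 1761 and 1737 in controls at 24 h, and 2989 and 3026 with BMP2 and 1213 and 826 in controls at 6 h. Its arrays did not overlap, yet its 24 h call was lost without any of 6 arrays, all but the controls of 6 h (adjusted p up to 0.192), and its 6 h call without any of the 4 arrays of 6 h (up to 0.298). Id2 (0.88 and 0.85) and Id3 (1.03 and 1.23) were not called. Bhlhe40, a bHLH repressor, fell at 24 h (-1.97), a call lost without control array 6 or BMP2 array 1 of 24 h (up to 0.126). Among 10 BMP-induced transcription factors all 10 changes were positive, with median effects of 1.33 at 24 h and 0.78 at 6 h. Like the other lists, this one was chosen with earlier results of these data known, so the shared sign is no independent evidence. Hopx, Klf4 (2.84 and 1.22) and Snai2 (2.21 and 1.02) were growing, Atoh8 (2.85 and 2.77) and Msx2 (1.72 and 1.16) were sustained, and Hopx alone passed the test of the change, beside 0.5% of all genes upward. The 6 h calls of Klf4 and Snai2 were lost without any 1 of the 4 arrays of 6 h (up to 0.201 and 0.357), that of Snai2 also without either BMP2 array of 24 h, and that of Msx2 without BMP2 6 h array 1 (0.0513).

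The largest sustained inductions besides Smad6 and Fst were of varied function. Ccn2, a matricellular protein known as connective tissue growth factor, gave 2102 and 551 with BMP2 and 94.6 and 10.8 in controls at 24 h, and 590.2 and 933 with BMP2 and 11.9 and 33.7 in controls at 6 h. Its groups did not overlap, but replicates differed several-fold, and the effects of 3.92 and 3.85 had an SE of 0.64. Without control 6 h array 1 its 6 h call was lost (adjusted p = 0.0525). Atoh8, a bHLH transcription factor, gave 343 and 269 with BMP2 and 26.2 and 5.49 in controls at 24 h, and 336 and 279 with BMP2 and 11.8 and 23.9 in controls at 6 h, nearly the same levels at both times. Papss2, which makes the sulfate donor PAPS, had effects of 3.26 and 2.60, and Gadd45b, a stress-responsive regulator, of 3.14 and 2.37.

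The sustained losses were led by Ptpre, a receptor tyrosine phosphatase, with 63.4 and 53.8 with BMP2 and 1006 and 804 in controls at 24 h, and 36.8 and 49.8 with BMP2 and 903 and 750.4 in controls at 6 h. Its BMP2 arrays were equally low at both times (effects -3.36 and -3.51). Egfr, the receptor for EGF, gave 277 and 387 with BMP2 and 1839 and 2071 in controls at 24 h, and 309 and 261 with BMP2 and 1283 and 1169 in controls at 6 h (effects -2.46 and -1.99). BMP2 arrays stayed near one level while the controls were higher at 24 h. Its ligand gene Tgfa, described above, was by contrast below the controls only at 24 h. Dll1, a ligand of Notch, had effects of -1.92 and -2.09. Asic1, an acid-sensing ion channel (-2.71 and -2.28), Ncald, a neuronal calcium sensor (-1.81 and -1.93), and Nfe2l3, a transcription factor of the NF-E2 family (-2.90 and -1.93), were sustained as well. The 6 h call of Nfe2l3 was lost without any 1 of the 4 controls or BMP2 6 h array 1 (adjusted p up to 0.539), and that of Dll1 without BMP2 6 h array 1 (0.0596).

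Transient responses were few, 9 probe sets of 7 genes. Cdkn1c, the cyclin-dependent kinase inhibitor p57, gave 1009 and 808 with BMP2 and 395 and 605 in controls at 24 h, against 2115 and 1401 with BMP2 and 205 and 179 in controls at 6 h. BMP2 arrays were above the controls at both times, but the gap was wider at 6 h, with effects of 0.84 ± 0.22 and 2.97 ± 0.22 and a change of -2.13 ± 0.32 (limma adjusted p = 0.00496). Its controls were higher at 24 h, and its 24 h effect, which was under 2-fold, had an adjusted p of up to 0.223 without control array 5 or BMP2 array 1 of 24 h. The call of the change remained under each omission of 1 array, but with all 6 controls of 24 h the change was -1.36 (adjusted p = 0.427) and with controls 1 to 4 it was -0.98 (0.0547). Rnf128, the ubiquitin ligase GRAIL, gave 40.6 and 40.8 with BMP2 and 50.4 and 50.7 in controls at 24 h, and 248 and 155 with BMP2 and 52.7 and 46.7 in controls at 6 h. It was upregulated at 6 h and not at 24 h, with a change of -1.67 ± 0.34 (limma adjusted p = 0.0486) that was lost in 7 of 8 omissions, all but that of BMP2 6 h array 2 (up to 0.244), and in a fit on the 8 arrays alone (0.0519), and its second probe set changed by -1.31 without passing (adjusted p = 0.381).

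Nog, the secreted BMP antagonist noggin, had the largest 6 h effect of the class. It gave 669.8 and 722 with BMP2 and 39.2 and 56.3 in controls at 24 h, and 3142 and 2888 with BMP2 and 150.3 and 97.0 in controls at 6 h. Both BMP2 and control arrays were lower at 24 h, the effects were 3.20 ± 0.18 and 4.31 ± 0.18, and the change of -1.11 ± 0.25 did not pass the test (limma adjusted p = 0.0774). With all 6 controls of 24 h the change was -1.17 and passed (adjusted p = 0.0297), as it did with controls 1 to 4 (-1.21, adjusted p = 0.00648). Sema3e, a class 3 semaphorin, gave 38.6 and 42.4 with BMP2 and 33.5 and 24.9 in controls at 24 h, and 239 and 261 with BMP2 and 48.5 and 92.9 in controls at 6 h. Its arrays were high only with BMP2 at 6 h, with a change of -1.24 ± 0.37 that did not pass (adjusted p = 0.271), while with controls 1 to 4 it was -1.96 and passed (0.00365). Timp3, an inhibitor of metalloproteinases, rose at 6 h in both of its transient probe sets (1.48 and 1.47) and had effects of 0.34 and 0.32 at 24 h. For Sema3e and Timp3 the values given are not from the brightest tested probe set of the gene, which was not transient. With 1 probe set per gene, the brightest, 5 transient genes remained, without these. The downregulated members were Fam43a (-0.01 at 24 h, -1.08 at 6 h) and Hdac7, a class II histone deacetylase, with 119 and 103 against 219.7 and 326 at 24 h and 35.3 and 97.6 against 412 and 327 at 6 h. At 6 h the calls of 1 Timp3 probe set and of Fam43a were lost without any 1 of the 4 arrays of 6 h (adjusted p up to 0.172 and 0.217), that of Sema3e without control array 1 or BMP2 array 2 (up to 0.110), and that of Rnf128 without BMP2 array 1 (0.0781). At 24 h that of Hdac7 was lost without control array 6 or either BMP2 array (up to 0.272).

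**Figure D4:**
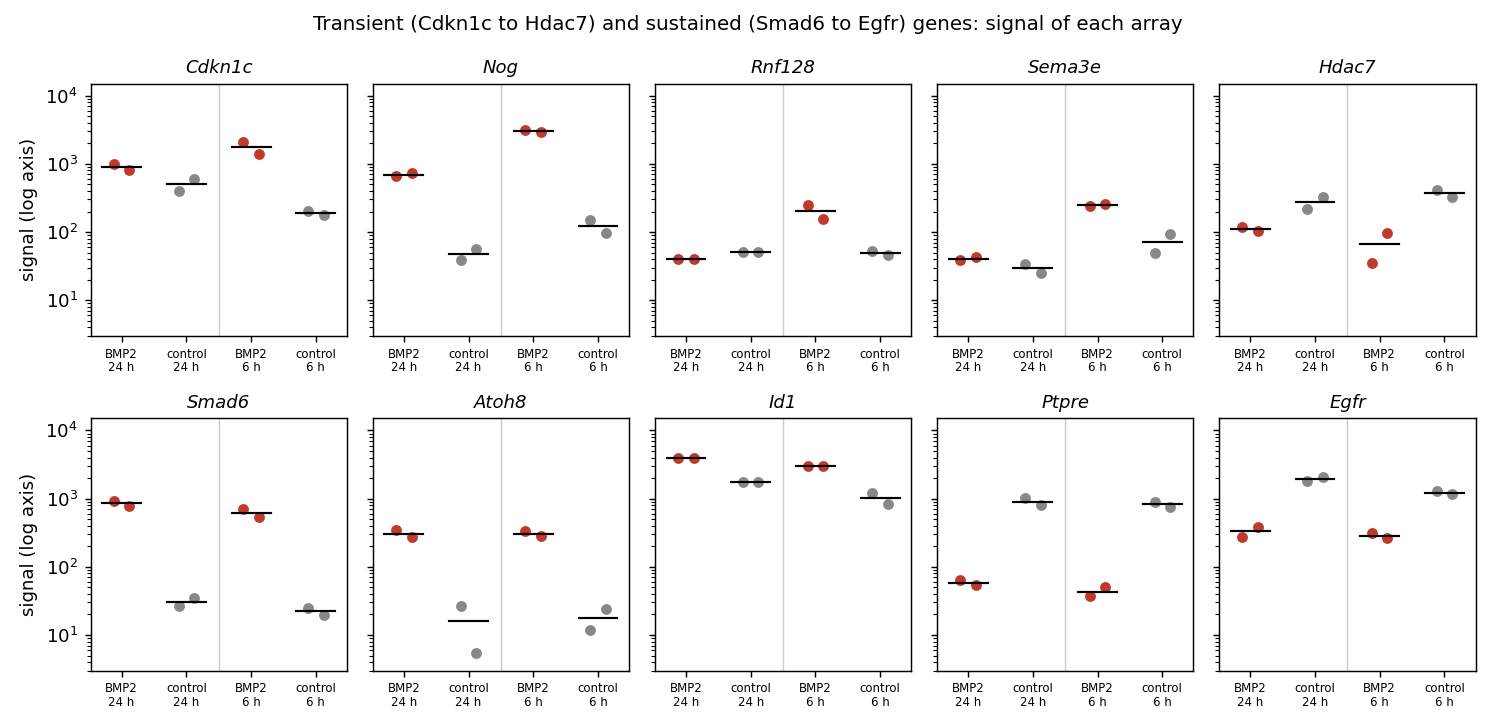
Normalised signal on each of the 8 arrays (log axis) for transient and sustained genes, with BMP2 and control arrays of 24 h and of 6 h as separate groups, points for arrays and black lines for group means. Rnf128 and Sema3e are apart from controls at 6 h only, Cdkn1c and Nog are closer to controls at 24 h, and Smad6 and Ptpre keep a similar gap at both times.

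Other gene groups changed in some of their members. At 24 h calls numbered 3 up and 2 down of 18 Wnt genes, 2 up and 4 down of 19 Notch genes, 2 up and 2 down of 18 neuronal genes, 4 up and none down of 20 extracellular matrix genes, and 4 down and none up of 21 genes of receptor tyrosine kinase signalling, beside 3.59% up and 2.5% down of all tested genes. In the Wnt list Wif1, a secreted Wnt inhibitor, was induced at both times and growing, with 1127 and 1617 with BMP2 and 4.83 and 4.84 in controls at 24 h, and 509 and 301 with BMP2 and 5.37 and 2.77 in controls at 6 h (change 1.67 ± 0.36, limma adjusted p = 0.0567). With all 6 controls of 24 h its change was 1.73 and passed (adjusted p = 0.0229), as with controls 1 to 4 (1.76, adjusted p = 0.00588). Its controls were at background throughout. The inhibitor Dkk1 (1.63 at 24 h, 0.44 at 6 h) was growing as well, and the secreted Sfrp1 (-1.52 and -0.32) and Sfrp2 (-1.24 and 0.03) were growing downward. In the Notch list Dll1, Mfng and Nrarp were sustained downward and Hey1 upward, and none passed the test of the change. Of the neuronal genes Scg2, a granin of secretory granules (3.93 and 1.89), and Celf4 (1.77 and 0.18) were growing upward and Rbfox3 (-1.23 and 0.42) and Dscam (-1.96 and -0.93) downward. Of the extracellular matrix genes Lox, Bgn and Fn1 were growing upward, with 24 h effects of 1.40, 2.94 and 1.5. Among genes of receptor tyrosine kinase signalling Pdgfra was growing and Egfr and Myc (-1.82 and -1.17) were sustained downward. The 6 h call of Myc was lost whichever of the 8 arrays was left out (adjusted p up to 0.319), and that of Scg2 without either control or BMP2 array 1 of 6 h or either BMP2 array of 24 h (up to 0.660). At 24 h the call of Sfrp2 was lost without control array 6 or BMP2 array 1 (up to 0.149), that of Rbfox3 without control array 5 (0.0532) and that of Lox without control array 6 (0.0502).

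Of 24 astrocyte genes tested, S100b alone was called, a share near the 6.09% of all tested genes called at 24 h. It fell at 24 h (-1.55 at 24 h, 0.11 at 6 h), a call lost without any 1 of the 4 arrays of 24 h (adjusted p up to 0.189), and the list medians were -0.13 at both times. Gfap, the intermediate filament of astrocytes, gave 951 and 142 with BMP2 and 623 and 102 in controls at 24 h, and 482 and 1100.3 with BMP2 and 280.1 and 901 in controls at 6 h. Treated and control arrays overlapped at both times, replicates differed several-fold, and its change was -0.01 ± 1.12. Taken in the order printed, each BMP2 array lay above the control array at both times, though the 24 h arrays do not share numbers. Of 29 cell cycle and replication genes none was called at either time or for the change, 27 changes were positive, and the medians were 0.29 at 24 h and 0.02 at 6 h. Cholesterol synthesis (19 tested), the JAK-STAT pathway (12) and MHC class I genes (8) had no member called, counts too small to set against 6.09%. Of the endothelial markers Kdr, a VEGF receptor, reached the minimum and was growing, with 306 and 254 against 94.0 and 62.6 at 24 h and 82.6 and 77.7 against 60.0 and 54.2 at 6 h, while the other 8 stayed under 100. Markers of mural cells summed to 2454 to 2660 with BMP2 and 1850 to 2027 in controls at 24 h, and to 1625 to 1677 with BMP2 and 1696 to 1741 in controls at 6 h. Tagln, with 686.9 and 853.5 with BMP2 and 82.2 and 94.7 in controls at 24 h, was the 1 of 5 tested that was called. The difference of the sums at 24 h lay mostly in it, and the part of such cells in the growing matrix and receptor genes was not tested. Of 45 tested genes that the study names, 15 were growing and 16 sustained, but these had been chosen on the same arrays and are no independent evidence.

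The TSA effect was taken from arrays that entered no BMP2 effect, though they contributed to the common estimate of spread behind the calls. At 24 h TSA raised 14.5% and lowered 17.9% of all tested probe sets (limma adjusted p under 0.05 against controls 1 to 4). Of the 141 downregulated growing probe sets, 87 fell with TSA (61.7%) and 15 rose, and of the 73 downregulated sustained ones 44 fell (60.3%) and 7 rose. Of the 236 upregulated growing probe sets, 93 rose (39.4%) and 7 fell. Among these 236, 120 had reached the minimum mean only with BMP2 at 24 h, and were thus dim in controls 5 and 6. A dim probe set has little room to fall, so the 7 falls cannot be set against the 17.9% of all tested probe sets. The part of this selection in the 39.4% was not tested. Of the 118 upregulated sustained probe sets 27 rose (22.9%) and 21 fell (17.8%). The transient class had 2 that rose and 2 that fell of 9. Gpr17 had an effect of -4.53 with TSA and -4.58 with BMP2 at 24 h, Lims2 of -3.27 and -3.85, Plxnb3 of -3.06 and -2.50, and Gal3st1 of -2.83 and -2.63. Egfr (1.07), Sfrp1 (1.11) and Sfrp2 (1.51) rose with TSA although they had fallen with BMP2, and Smad7 (-2.17) and Papss2 (-1.52) fell with it. Npvf (-0.11), Serpinf1 (0.01), Aplnr (0.01) and Smad6 (0.17) did not pass the test with TSA. Of the other genes among the 10 largest growths, Diras2 (0.98), Cdk6 (1.00) and Mamdc2 (0.64) rose with TSA. Nrp2 (0.37), Fmod (0.40), Tnfrsf13c (-0.25) and Lyz1 (-0.06) did not pass.

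**Figure D5:**
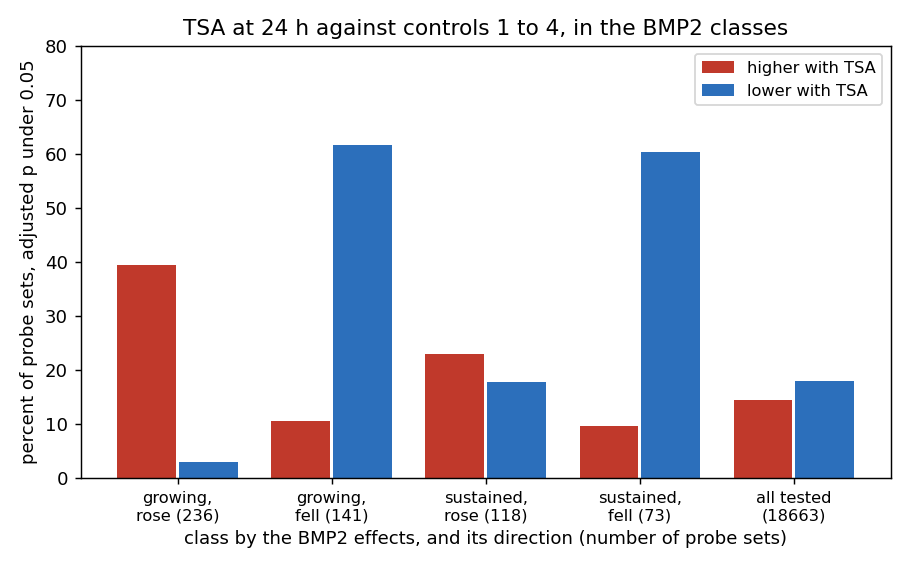
Percent of probe sets in each BMP2 class that rose or fell with TSA at 24 h (limma adjusted p under 0.05, TSA against controls 1 to 4, 4 arrays each), with all 18663 tested probe sets for comparison. The downregulated classes hold 61.7% and 60.3% lowered by TSA, beside 17.9% of all, and the upregulated growing class 39.4% raised, beside 14.5%. In the upregulated growing class 120 of 236 probe sets reached the minimum mean only with BMP2 at 24 h, which leaves them little room to fall.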

How the data were processed

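RNA of 18 samples was measured on Affymetrix Mouse Genome 430 2.0 arrays, and 8 arrays entered the contrast. The deposited values were intensities, 1 per probe set and array, made by the authors. The submitters' processing notes name MAS5 (version not given in the sources used here), and the methods name dChip with quantile normalisation. Here the deposited intensities were quantile normalised over all arrays, 32 was added and log2 taken. Probe sets were kept where any of the 4 group means reached 100. All 18 arrays, as 7 groups with the 24 h controls split into 1 to 4 and 5 to 6, were fitted with limma 3.58.1 in R 4.3.3 (eBayes with trend, 11 residual and 3.89 prior degrees of freedom), with Benjamini-Hochberg adjustment at 0.05 and, for each time, a minimum of 2-fold. Genes were named from the platform annotation (17073 tested probe sets with 1 gene, 483 with several and 1107 with none), and lists used the brightest probe set per gene. Arrays give no read depth. Precision is limited by the number of arrays and, for dim probe sets, by their noise.

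The genes named were the 10 with the largest growth and those with the largest loss of effect that passed the test of the change and had non-overlapping arrays, the 6 sustained genes with the largest effects in each direction, all transient genes, up to 4 members of each list and the genes the study names. Downregulated growing genes were added after their values were seen. The members, classes and lists were chosen with earlier results of these data known. Promoter windows were from RefSeq (GRCm38.p6). Alternatives were the deposited signals without further normalisation, added constants of 16 and 64, a minimum mean of 200 or none, the 8 arrays alone, other 24 h controls, no trend, a replicate block, other class criteria, 1 probe set per gene, and each array left out in turn. A group left with 1 array was then assumed to vary like the others. The fits were tested on simulated data.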

Additional observations from a re-analysis of the deposited data

Results flagged for a closer look

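For 21 genes named above the BMP2 effect at 24 h differed from that at 6 h by the test of the difference (limma, adjusted p under 0.05), and the changes below are on the log2 scale. Upward, with BMP2 further above the controls at 24 h, were Npvf (3.97), Serpinf1 (3.23), Diras2 (3.21), Nrp2 (3.13), Cdk6 (3.12), Mamdc2 (3.01), Fmod (2.94), Tnfrsf13c (2.82), Aplnr (2.80), Lyz1 (2.79) and Hopx (2.23). Downward through a growing loss were Gal3st1 (-2.60), Pcdh15 (-2.51), Abtb2 (-2.09), Dpp10 (-2.0), Pdgfra (-1.90), Mfge8 (-1.86) and Oca2 (-1.80). Tgfa (-1.89) moved downward from above the controls at 6 h to below them at 24 h. Downward through a lesser induction at 24 h were Cdkn1c (-2.13) and Rnf128 (-1.67). Of the 21, Npvf, Serpinf1, Nrp2, Mamdc2, Tnfrsf13c, Aplnr, Lyz1, Tgfa, Mfge8 and Cdkn1c remained called whichever of the 8 arrays was left out. Among them Npvf, Nrp2, Mamdc2, Tnfrsf13c, Aplnr and Lyz1 had reached the minimum mean only with BMP2 at 24 h, where they were high. Cdkn1c and Pcdh15 were not called with the other choices of 24 h controls, and Oca2 was not called with all 6 of them. In a fit on the 8 arrays alone Diras2, Fmod, Hopx, Dpp10, Oca2 and Rnf128 were not called. The 24 h arrays stood apart from the 6 h arrays in Xist, and the part of that difference between cultures in these changes was not tested.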

How the results depend on the processing

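The count of changed probe sets (87) depended most on the arrays used. It was 52 with a minimum mean of 200, 152 with the 8 arrays alone (50.7% upward against 80.5%), 1534 with controls 1 to 4 of 24 h (44.8% upward), and 38 to 117 with 1 array left out. With controls 1 to 4 there were also 2178 calls at 24 h, 1425 growing and 22 transient probe sets, and all 6 controls gave 607 growing ones. Leaving out 1 array gave 151 to 261 calls at 6 h and 105 to 171 sustained probe sets, the lowest without BMP2 6 h array 1, and 285 to 471 growing ones. Thresholds of 1.5-fold gave 856 growing and 40 transient probe sets, the study's criteria 20 transient ones, and 1 probe set per gene 251 growing, 126 sustained and 5 transient ones. For the other choices and counts the value stayed within 1.5 times. The causes were not tested. With the replicate number as a block within each time, 316 probe sets changed (63.3% upward, all 87 among them) and 14 were transient. Within the contrast the block joined BMP2 and control arrays of 6 h only (deviations correlated at r = 0.70, 2 pairs). It also joined the TSA arrays of 6 h to these, and TSA arrays to controls 1 to 4 at 24 h. The 24 h arrays used here carry unlike numbers and were left unjoined, with r = 0.27 when matched by order. By the labels the samples share only a number, and whether it stands for a shared culture was not tested. Under this block the changes of Nog, Wif1, Klf4, Kdelr3, Fn1, Nefm, Cnp, Plxnb3, Efhd1 and Rbfox3 gained a call. Of 109 recomputed 24 h effects and changes of named genes (6 h effects were not among them), none that was called turned sign. Small changes that were not called did, as that of Ccn2 (0.07), which lay between -0.87 and 1.01 with 1 array left out. Of 1946 recomputed values 1730 stayed on the same side of the threshold, 159 lost a call and 57 gained one.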
